A study of Mus musculus with 4 samples.

Results

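Npy, Gal, Nts and Cck are 4 genes for secreted peptides, out of 31053 genes in the deposited matrices, and were followed here across the cell classes of the mouse mammary gland. They were chosen by name, on levels seen in these data, and are described by their UMI sums, their CPM and the share of cells with at least 1 UMI in each library and class. A UMI stands for 1 captured transcript. CPM is the gene's UMI count per 1000000 UMIs of the class in that library. Because the choice rested on these levels, the levels are given as a description without a test.

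The study asked what the conditional loss of Tfap2c, which encodes the AP-2γ transcription factor, does to mammary stem cells. All 4 libraries came from FVB mice with the genotype Tfap2cfl/fl / Krt5-CreERT2, in which the Krt5 promoter drives an inducible Cre in basal cells. In 2 mice the vehicle corn oil was injected daily from week 4, and in the other 2 mice 4-hydroxytamoxifen (4OHT), which activates this Cre. The fourth mammary glands were taken at week 9 and profiled as droplet 3′ libraries. The labels give the length of the injections as 5 days in one place and longer in another. Every control mouse carried the floxed alleles and the Cre as well.

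Each of the 4 peptides is cut from a larger precursor in the secretory pathway and acts on other cells through receptors, most of them coupled to G proteins. Neuropeptide Y (Npy) is made by sympathetic and central neurons and acts on blood vessels and appetite. Galanin (Gal) is a neuronal and endocrine peptide that is also made in the pituitary. Neurotensin (Nts) is made in the gut and brain, and cholecystokinin (Cck) is the gut hormone that drives gallbladder contraction and pancreatic enzyme release.

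Of 18223 barcodes, 17832 with at least 1000 UMIs were kept, 3509 and 4233 from corn oil and 4670 and 5420 from 4OHT mice. Total UMIs per library ran from 17351950 to 22017878. Raw UMIs of keratin and marker genes placed 7028 cells as basal, 5629 as luminal progenitor, 1168 as hormone-sensing luminal and 205 as endothelial. The other 3802 cells passed no gate and are called unclassified. Endothelial cells numbered 4 and 65 with corn oil and 30 and 106 with 4OHT. Between 18 and 36 barcodes were shared by each pair of libraries. In basal cells the targeted gene had 389 and 285 CPM with corn oil and 285 and 325 CPM with 4OHT, so the groups overlapped. The labels do not name the deleted exons, and a 3′ count may fall outside them, so this checks nothing. The p-values below measure the spread between the 4 mice, or between 3 of them in the Npy comparison. Between classes, and between positive and negative cells, they measure how differences within a library vary from mouse to mouse.

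The 4 genes lie on different chromosomes of GRCm38. Npy (ENSMUSG00000029819) is a plus-strand gene of chromosome 6, from 49822710 to 49829507. Cck (ENSMUSG00000032532) lies on chromosome 9 from 121489824 to 121495694, Nts (ENSMUSG00000019890) on chromosome 10 from 102481756 to 102490486, and Gal (ENSMUSG00000024907) on chromosome 19 from 3409915 to 3414544, all 3 on the minus strand. The 250 bases before each start were searched on both strands for 4 short motifs in the RefSeq promoters of GRCm38.p6. The AP-2 motif GCCNNNGGC was in 0 of the 4 and in 13.7% of 32851 promoters. The STAT5 motif TTCNNNGAA was in 0 of the 4 and in 7.02% of promoters, and the CRE motif TGACGTCA was in 0 of the 4 and in 1.55%. The AP-1 motif TGANTCA was in Nts alone, and in 6.75% of promoters. The window with that match is shown because it was the only match among the 4 genes. It is at chr10:102490609-102490635, on the gene's own minus strand, with the motif in capitals.
Nts promoter window: actctttctgTGAGTCAgaaatcctga
The match begins 207 bases before the RefSeq start. A match is a description of the letters and shows no binding.

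The genes differed in where most of their UMIs fell, but Npy and Gal shared the basal class. Cck had 3532 UMIs in 1175 kept cells, and 88.6% of them were in luminal progenitors. Npy had 239 UMIs in 91 cells, with 87.4% in basal cells. Gal had 287 UMIs in 52 cells, with 71.8% in basal cells. Nts had 380 UMIs in 42 cells, and 61.6% of them were in unclassified cells. Its level was highest in the endothelial class.

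**Figure D1:**
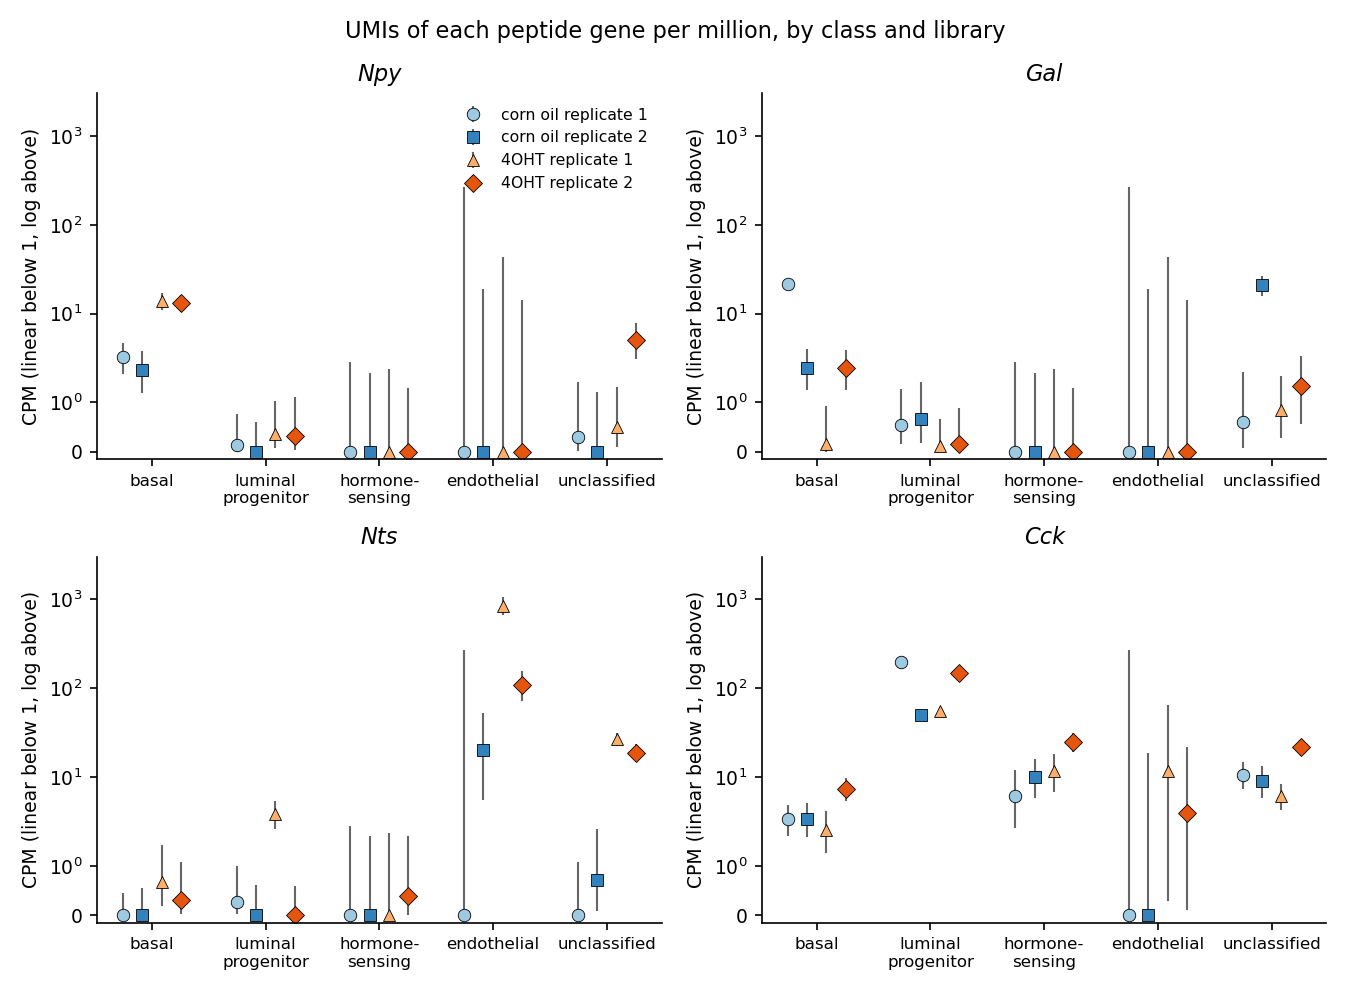
CPM of each gene (y axis, linear near 0 and logarithmic above) by cell class (x axis), with 1 point per library and bars for the exact 95% counting interval. Cck sits highest in luminal progenitors in all 4 libraries, at 49.4 to 198 CPM, and Npy in basal cells, at 2.29 to 13.8 CPM.

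Cck was the most widely detected of the 4. In luminal progenitors it had 1436 and 299 UMIs in corn oil replicates 1 and 2, and 472 and 923 UMIs in 4OHT replicates 1 and 2. These are 198 and 49.4 CPM for corn oil and 56.2 and 149 CPM for 4OHT. The groups overlapped, since each held 1 high and 1 low library, and the means were 123 ± 105 and 102 ± 65.4 CPM (SD, n = 2 each). Cells with a Cck UMI made up 27.2% and 10.9% of progenitors in corn oil and 10.5% and 21.3% in 4OHT libraries. After each cell was thinned to 2000 UMIs the shares were 15.8%, 5.83%, 5.83% and 14.8% in the same order. The order of the libraries was thus the same at equal depth, apart from the tied pair.

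Outside the progenitors Cck was low. Basal cells had 3.34, 3.36, 2.53 and 7.29 CPM in the order corn oil 1, corn oil 2, 4OHT 1 and 4OHT 2, and 0.517% to 1.74% of them had a Cck UMI. That share is the background against which the progenitor shares stand, at median depths of 2827.5 to 5152.5 UMIs in basal cells and 3473 to 5281.5 in progenitors. Hormone-sensing cells had 6.17, 10.0, 11.6 and 24.8 CPM in the same order. Both 4OHT libraries were above both corn oil libraries there, as were 18% of genes in that class. Endothelial cells had 0, 0, 11.7 and 3.90 CPM, from 2 UMIs in all. Values of basal and hormone-sensing cells overlapped across libraries, but within each library the hormone-sensing cells had the higher Cck CPM. Every progenitor library was above every library of the other named classes.

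Cck was spread unevenly among its cells. Of the 966 positive progenitors, 512 had 1 UMI, while 154 cells with 5 or more held 58.4% of the UMIs. A group of 105 cells, 1.87% of all progenitors, held 50% of them. The highest cell, in corn oil replicate 1, had 110 Cck UMIs of 9535, and the same cell had 321 UMIs of Csn1s2a, 110 of Csn1s1 and 98 of Csn2, all casein genes. The highest cells of the other libraries had 40 (corn oil replicate 2), 23 (4OHT replicate 1) and 52 UMIs (4OHT replicate 2).

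**Figure D2:**
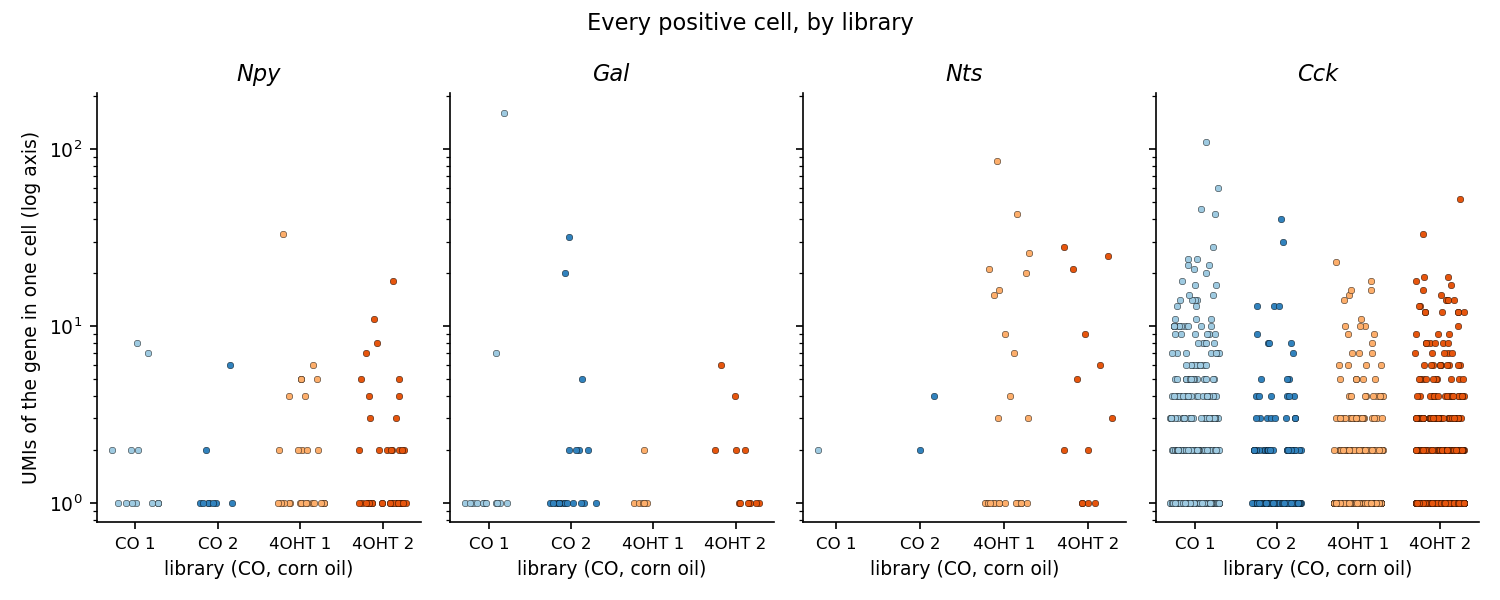
UMIs of each gene in every kept cell with at least 1 UMI (y axis, logarithmic), by library (x axis), 1 point per cell. Most points lie at 1 UMI, and a few cells stand far above, at 160 UMIs for Gal in corn oil replicate 1 and 86 for Nts in 4OHT replicate 1.

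The other genes of Cck-positive progenitors were compared with those of Cck-negative progenitors in the same libraries (edgeR quasi-likelihood test on summed UMIs with library as a block, Benjamini-Hochberg adjustment, Cck left out). Positive cells numbered 351, 123, 186 and 306. Of 8568 genes tested, 717 were higher and 403 lower at an adjusted p under 0.05, which is 13.1% of them. Positive cells were deeper, with median UMI counts of 6077, 5415, 4688 and 4176 against 5081, 4746, 4339.5 and 3339 in negative cells. With every cell thinned to 2000 UMIs the count was 664, of which 583 were among the same genes. It was 518 without corn oil replicate 1 and 540 without 4OHT replicate 1.

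Genes of milk synthesis were among the largest increases with Cck. Btn1a1, the gene for butyrophilin, needed for milk fat secretion, had 291, 44.4, 216 and 163 CPM in positive cells against 77.8, 16.3, 49.6 and 48.3 CPM in negative cells of the 4 libraries. It was higher in positive cells in all 4, with a log2 difference of 2.10 (SE 0.12, edgeR adjusted p = 1.6e-08). Lalba, the gene for α-lactalbumin, a part of lactose synthase, had a mean of 290 CPM against 57.7 CPM (log2 difference 2.64). Csn2, the β-casein gene, had 650 against 155 CPM, with a log2 difference of 2.70 (SE 0.63, edgeR adjusted p = 0.00948). The Csn2 differences by library were uneven, at 5.71, 1.30, 3.63 and 0.09 on the log2 scale. Csn1s1, the α-S1 casein gene, had 1228 against 421 CPM.

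Several genes with roles in transport and lipid handling were also among the 12 largest increases. Folr1, a folate receptor, had 121 CPM in positive and 38.3 CPM in negative cells. Apod, a lipocalin that binds lipids, had 322 CPM in positive cells (log2 difference 2.36). Scnn1b, a subunit of the epithelial sodium channel, had 46.5 against 15.1 CPM, and G0s2, an inhibitor of fat breakdown, had 57.8 against 18.5 CPM. Cbr2 (98.8 against 19.7 CPM) and Dcxr (117 against 39.2 CPM) are carbonyl reductases. The log2 differences of these 6 genes ran from 1.82 for Dcxr to 2.63 for Cbr2. The unannotated Gm1673 had a log2 difference of 1.95.

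The largest decreases were of 2 small secreted proteins of the WAP four-disulfide core family. Wfdc12 had 6.81 CPM in Cck-positive and 77.9 CPM in Cck-negative progenitors, a log2 difference of -3.29 (SE 0.20, edgeR adjusted p = 5.0e-08). Wfdc17 had 10.0 against 80.9 CPM (log2 difference -3.09). Irf7 (20.8 against 66.7 CPM), Gbp2 (22.2 against 75.1 CPM), Iigp1, Ifi202b, Xaf1 and Ifi44 were lower too, and each is known as an interferon-induced gene. Their log2 differences ran from -1.55 for Irf7 to -1.32 for Ifi44. Ly6a, the surface antigen Sca-1, had 108 against 328 CPM. Fgg, a fibrinogen chain, and Dmkn, a secreted epidermal protein, had log2 differences of -1.59 and -1.42. Cpe, which trims basic residues from peptide precursors, had 12.4 against 38.6 CPM (log2 difference -1.40).

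**Figure D3:**
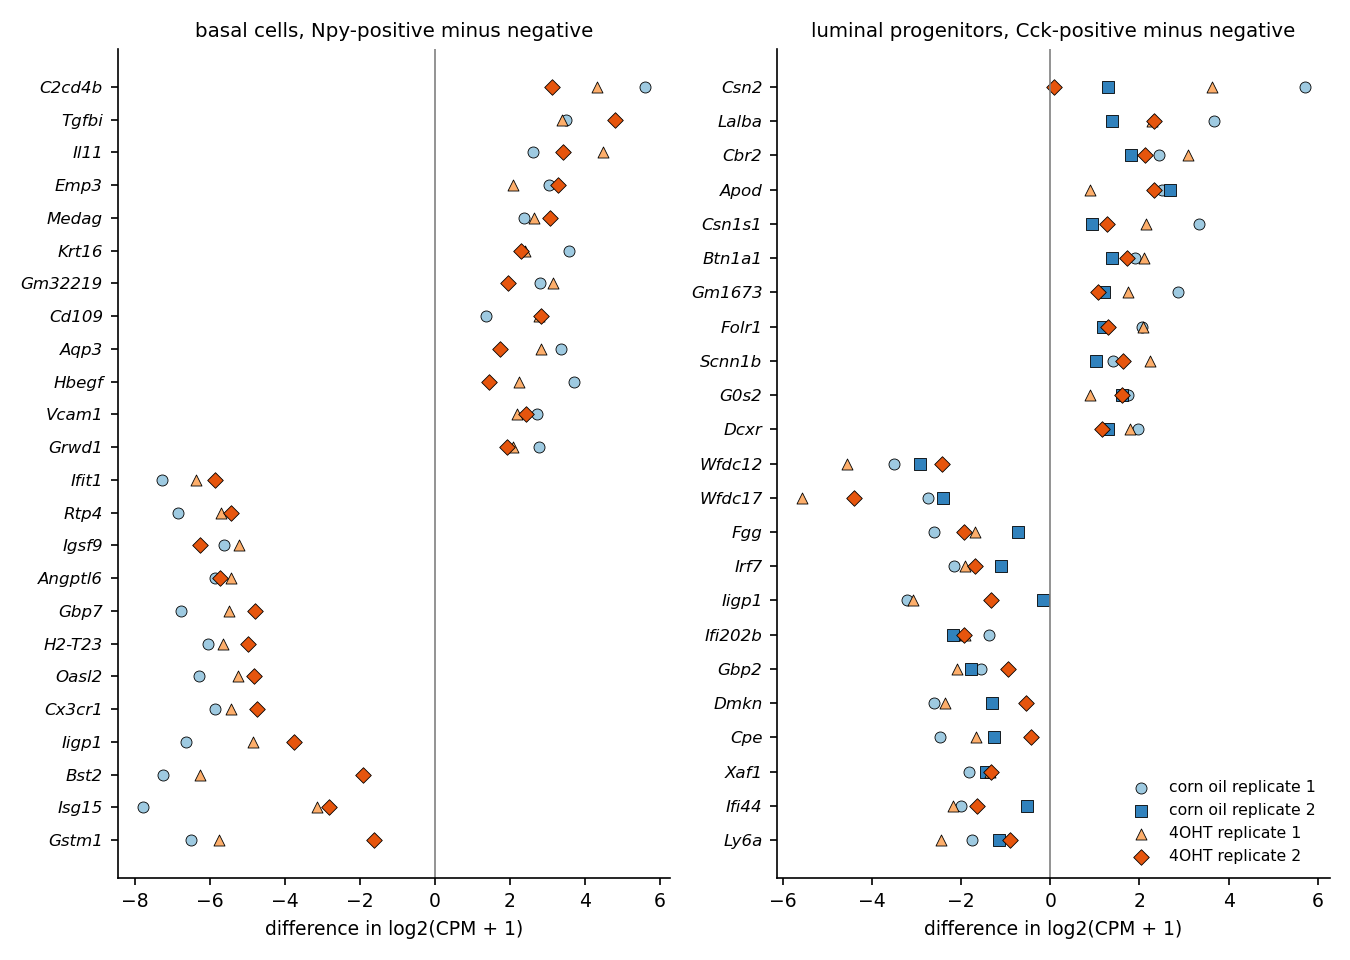
Difference in log2(CPM + 1) between positive and negative cells (x axis) for genes named in the text (y axis), 1 point per library, with Npy in basal cells of 3 libraries on one side and Cck in luminal progenitors of 4 libraries on the other. Btn1a1 lies to the right of 0 and Wfdc12 to the left of 0 in all 4 libraries.

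The genes also differed by how many Cck UMIs a cell had. Lalba had 55.8 CPM in progenitors with 0 Cck UMIs, 129 with 1, 338 with 2 to 4 and 732 with 5 or more, with the cells of all libraries summed (4663, 512, 300 and 154 cells). Btn1a1 had 47.8, 117, 200 and 456 CPM in the same bins, and Wfdc12 had 81.0, 9.93, 2.27 and 0.927 CPM. In these sums Lalba and Btn1a1 were higher in each next bin, and Wfdc12 lower. Btn1a1 had that order in each of the 4 libraries. Lalba did not, with 161 and 156 CPM at 1 and at 2 to 4 UMIs in corn oil replicate 2 and 141 and 105 CPM in 4OHT replicate 1. Without 4OHT replicate 2 the Lalba value at 2 to 4 UMIs was 163 CPM. Csn2 did not have such steps, with 144, 188, 175 and 2888 CPM. In the top bin its level was 3992 and 5994 CPM with corn oil and 533 and 472 CPM with 4OHT. Apod in the top bin was at 1135, 28.9, 24.2 and 2038 CPM in the order corn oil 1, corn oil 2, 4OHT 1 and 4OHT 2, so its sum over libraries rests on 2 of them.

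**Figure D4:**
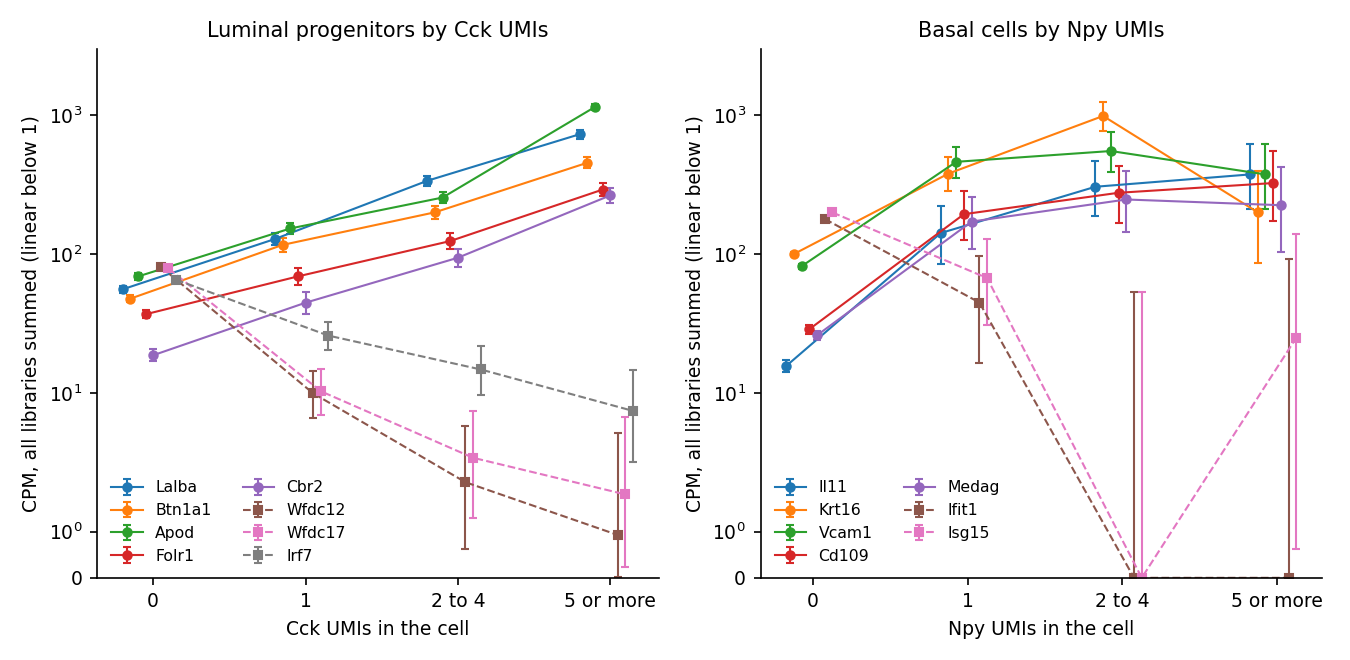
CPM of named genes (y axis, logarithmic) in basal cells by their Npy UMIs and in luminal progenitors by their Cck UMIs (x axis, 0, 1, 2 to 4, 5 or more), all libraries summed, with exact 95% counting intervals as bars. Lalba goes from 55.8 to 732 CPM and Wfdc12 from 81.0 to 0.927 CPM with more Cck UMIs, and Cd109 from 28.8 to 325 CPM with more Npy UMIs, in a top bin of 13 cells. The Il11 value of that bin is 376 CPM, and 141 CPM without 4OHT replicate 2.

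Markers of the cell classes moved with Cck as well. Of 10 luminal progenitor markers tested, 4 were higher in Cck-positive progenitors and 3 lower, where 13.1% of all genes were called. Elf5, a transcription factor of milk-producing cells, had 250 against 111 CPM (log2 difference 1.39), Trf had 3752 against 1973 CPM, and Csn3, a gate gene, had 5156 against 2814 CPM. Plet1, a surface protein, had a log2 difference of 0.80. Cd14, Wfdc18 and Aldh1a3 were lower, by log2 differences of -0.93, -0.51 and -0.50. Of 10 hormone-sensing markers tested, 4 were lower, among them Areg with a log2 difference of -2.38 and Pgr with -1.36. The part of these marker differences in the other results was not tested.

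Npy was found mostly in basal cells. They had 26 and 15 UMIs in corn oil replicates 1 and 2 and 82 and 86 UMIs in 4OHT replicates 1 and 2. These are 3.21 and 2.29 CPM for corn oil and 13.8 and 13.1 CPM for 4OHT, with means of 2.75 ± 0.650 and 13.4 ± 0.536 CPM (SD, n = 2 each). Both 4OHT libraries were thus above both corn oil libraries, with a ratio of 4.88 between the means. Of 12981 genes set out the same way in basal cells, 13.6% had both 4OHT libraries above both others. Npy-positive cells made up 0.668% and 0.466% of basal cells in corn oil and 1.55% and 1.47% in 4OHT libraries. After thinning to 2000 UMIs the shares were 0.274%, 0.229%, 0.992% and 1.22%. The difference in share was thus there at equal depth too.

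Few cells carried the Npy signal. Of 73 positive basal cells, 39 had 1 UMI, and 11 cells held 50% of the UMIs. The highest cell of each library had 8, 6, 33 and 18 Npy UMIs, in the order corn oil 1, corn oil 2, 4OHT 1 and 4OHT 2. Without those 4 cells the levels were 2.23, 1.38, 8.26 and 10.3 CPM, and the groups still did not overlap. Luminal progenitors had 6 UMIs in all, each in a different cell, so 0% to 0.17% of them were positive by library. Hormone-sensing and endothelial cells had 0 UMIs. Unclassified cells of 4OHT replicate 2 held 20 UMIs.

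Basal cells with and without Npy were compared in the 3 libraries with at least 10 positive cells, which leaves out corn oil replicate 2 with 9. Positive cells numbered 10, 22 and 32. Of 8670 genes tested, 49 were higher and 167 lower at an edgeR adjusted p under 0.05, which is 2.49%. The median log2 difference of all tested genes was -0.46, so that a small negative value is near the middle of the table. The count was 75 without 4OHT replicate 1 and 72 without 4OHT replicate 2. Of the 24 genes named from this comparison, 17 kept their call without corn oil replicate 1, 13 without 4OHT replicate 1 and 15 without 4OHT replicate 2, and all 24 kept their direction. Il11, Krt16, Vcam1 and Cd109 kept their call without each of the 3 libraries in turn, and Grwd1 lost it without any of them. Positive cells were shallower, with median UMI counts of 4378, 2994 and 2538.5 against 5154.5, 3867 and 2835. Their summed depth was 215053 UMIs.

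The 12 largest increases included genes for a cytokine, a keratin and cell-surface proteins. Il11, a cytokine of the interleukin-6 family, had 68.8, 257 and 323 CPM in Npy-positive cells of corn oil replicate 1 and 4OHT replicates 1 and 2, against 10.4, 10.6 and 29.1 CPM in Npy-negative cells. The log2 difference was 3.42 (SE 0.40, edgeR adjusted p = 6.6e-14). Krt16, a keratin of stressed and wounded epidermis, had 436, 515 and 668 CPM against 35.3, 97.0 and 135 CPM (log2 difference 2.35). Every positive value of these 2 genes was above every negative value. Vcam1, an adhesion molecule, had 390, 747 and 401 CPM against 58.4, 164 and 73.3 CPM (log2 difference 2.09). Cd109, a co-receptor of TGF-β, had 45.9, 319 and 334 CPM against 17.1, 45.8 and 46.3 CPM (log2 difference 2.32). In the 9 positive cells of corn oil replicate 2, outside the test, Il11 had 2 UMIs (73.0 against 13.1 CPM), Krt16 6 (219 against 148 CPM), Vcam1 1 (36.5 against 45.3 CPM) and Cd109 0.

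The others among the 12 largest increases were lower in level. C2cd4b had 127 against 4.82 CPM and the largest log2 difference of the 12, at 4.12. Tgfbi, a matrix protein induced by TGF-β, had 54.1 against 2.64 CPM. Hbegf, a ligand of the EGF receptor, had 108 against 15.1 CPM, and Aqp3, a channel for water and glycerol, had 200 against 30.3 CPM. Emp3, a membrane protein, had 196 against 27.4 CPM, and Medag had 197 against 28.2 CPM. Grwd1, a ribosome assembly factor, had 77.4 against 15.3 CPM, and Gm32219 had a log2 difference of 2.33. By Npy UMIs, Cd109 had 28.8 CPM at 0, 194 at 1, 277 at 2 to 4 and 325 at 5 or more, with all libraries summed (6955, 39, 21 and 13 cells). Its top bin, thinly filled, was between 282 and 371 CPM with any 1 library left out. Il11 had 15.6, 142, 306 and 376 CPM in the same bins, but the top value rested on 4OHT replicate 2, and without it was 141 CPM. In 4OHT replicate 1 alone Il11 had 301, 228 and 213 CPM over the bins with Npy. Krt16 did not follow the order either, with 100, 381, 991 and 200 CPM.

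Among the largest decreases many genes had 0 UMIs in the Npy-positive cells, where 3 UMIs over the 3 libraries would have been 13.95 CPM, the floor for these bounds. The bounds and ratios pool UMIs over the 3 libraries and are not matched by library. Corn oil replicate 1, highest in Ifit1 and Iigp1 in negative cells, gave 43616 of the 215053 UMIs of positive cells. Bounds matched by library were not computed. Ifit1, an interferon-induced gene, had 0 UMIs in positive cells against 154, 81.5 and 57.7 CPM in negative cells, a pooled bound of 7.36-fold lower. That bound was 5.26-fold for Rtp4, 4.58-fold for Gbp7, 3.65-fold for Iigp1 and 3.57-fold for Oasl2. Each of these is known to be induced by interferon. Exact 95% lower limits were smaller, at 5.98-fold for Ifit1 and 2.96-fold for Iigp1. H2-T23 (3.57-fold), Igsf9 (3.86-fold), Angptl6 (3.70-fold) and Cx3cr1 (3.08-fold) were lower on the same pooled bound. Isg15 had 2 UMIs, a ratio of 15.9 in favour of negative cells with an exact 95% counting interval from 4.39 to 131. Bst2 had 1 UMI (ratio 20.8, interval 3.73 to 821), and so had Gstm1 (ratio 13.5, interval 2.41 to 532). These zeros and bounds rest on leaving out corn oil replicate 2. Its 9 Npy-positive cells had 6 UMIs of Ifit1 (219 CPM, against 419 CPM in its negative cells). They had 7 UMIs of Rtp4 (256 against 146 CPM) and 6 of Gbp7 (219 against 107 CPM), so these genes were not lower there. With that library added, Rtp4, Gbp7 and Iigp1 lost their call, with log2 differences of -1.72, -1.59 and -1.80.

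Basal markers were uneven between Npy-positive and Npy-negative cells. Of 10 tested, Krt14, a gate gene, was higher (log2 difference 0.72), and 5 were lower, where 2.49% of all genes were called. Acta2, smooth muscle actin and a gate gene, had 2295 against 4945 CPM (log2 difference -1.46). The contractile genes Mylk, Myh11 and Cnn1 had log2 differences of -1.94, -1.58 and -0.97, and Oxtr, the oxytocin receptor, had -1.50. Of the luminal progenitor markers, Csn3 was higher (279 against 74.8 CPM) and Lcn2 lower (617 against 1359 CPM). Blood endothelial markers and enteroendocrine markers summed to 0 UMIs in the Npy-positive cells of this comparison.

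Nts was a gene of few cells, and most of those with several Nts UMIs had endothelial markers. In the endothelial class it had 0, 4, 73 and 28 UMIs in corn oil 1, corn oil 2, 4OHT 1 and 4OHT 2, which is 0, 20.3, 851 and 109 CPM. It was detected in 0 of 4, 1 of 65, 6 of 30 and 4 of 106 endothelial cells. Both 4OHT libraries were above both corn oil libraries, as were 18.6% of genes in that class, but the 4 cells of corn oil replicate 1 are too few to show a level. Over all kept cells Nts had 2, 6, 267 and 105 UMIs in 1, 2, 26 and 13 cells. These are 0.10, 0.347, 12.2 and 5.37 CPM, again with both 4OHT libraries above, as for 10.3% of genes over all cells. Without the highest cell of each library the endothelial levels were 0, 0, 359 and 27.6 CPM. In such sums, fewer cells of a type and less RNA per cell cannot be told apart.

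Most cells with several Nts UMIs fell outside the endothelial gate but had its markers. Of 24 cells with at least 2 Nts UMIs, 9 were endothelial, 13 unclassified and 2 luminal progenitors. In 20 of them at least 2 UMIs came from the endothelial markers, and 18 had at least 2 UMIs of the lymphatic markers. The lymphatic list holds genes that basal cells have too, as Npy-negative basal cells had 151 CPM of Pdpn and 57.8 CPM of Pard6g. Hence 2 such UMIs alone do not mark a lymphatic cell. At least 5 keratin UMIs were found in 4 of the 24. Of all 42 cells with at least 1 Nts UMI, 22 had at least 2 UMIs of the endothelial markers and 20 had at least 5 keratin UMIs. The highest, in 4OHT replicate 1, had 86 Nts UMIs of 3107 in the cell and was unclassified. Its other leading genes included Thbd with 7 UMIs, Procr with 5, and Eng and Cldn5 with 4 each, all known from endothelium. The next had 43 Nts UMIs of 2216 and 4 of Mmrn1. Barcodes under 1000 UMIs, which were not kept, held 11 Nts UMIs in 1 barcode of corn oil replicate 2 and 8 in 1 of 4OHT replicate 1.

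The 24 cells were set beside the 194 Nts-negative endothelial cells as a description, since both groups were defined by Nts or by the gate. The 24 came 1, 2, 12 and 9 from corn oil 1, corn oil 2, 4OHT 1 and 4OHT 2. The 194 came 4, 64, 24 and 102 in the same order, so the groups also differ in library. That part was not tested. Doublet scores rate a barcode as 2 cells captured together. Those with 28, 20 and 15 Nts UMIs, and 1 with 164 lymphatic UMIs, had some of the highest scores. Several general endothelial genes had like levels in both. Egfl7 had 1600 CPM in the 24 cells and 1546 CPM in the others, Cldn5 779 and 834 CPM, and Emcn 629 and 613 CPM. Pecam1, a gate gene, was lower in the 24 cells, with 232 and 763 CPM. Of 10 lymphatic markers 9 were higher in the 24 cells, all but Flt4 (27.3 against 35.2 CPM). Prox1, the transcription factor of lymphatic endothelium, had 178 CPM (9 cells) against 27.4 CPM (10 cells), Mmrn1 had 273 against 54.8 CPM, and Fgl2 had 1709 against 106 CPM. Lyve1 had 342 CPM, from 4 cells, against 0. Ccl21a, a chemokine that guides cells into lymphatic vessels, had 5660 against 219 CPM, from 5 and 2 cells. Ccl21a, Iigp1 and H2-T23 have near-identical relatives in the genome, so their counts are uncertain.

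Of 10 blood vessel markers 9 were lower in the 24 cells, all but Plvap, with 779 against 620 CPM. Sox17, an arterial factor, had 0 CPM against 157 CPM in the 194 cells. Selp, the gene for P-selectin, had 13.7 against 440 CPM, and Ackr1, a venous chemokine receptor, 13.7 against 335 CPM. Flt1, a VEGF receptor, had 41.0 against 346 CPM, and Vwf 27.3 against 162 CPM. Fabp4, a fatty acid carrier of capillaries, was still abundant, at 3322 against 5337 CPM. The lymphatic list summed to 8654 against 542 CPM and the blood list to 4361 against 8697 CPM. A few cells carried the lymphatic sum. Of its 633 UMIs, 204 and 165 were in 2 cells and 164 in another, of 4OHT replicate 1. The median was 3.5 lymphatic UMIs per cell in the 24 cells and 0 in the 194. Of the 633 UMIs, 414 were Ccl21a. The lymphatic sum was 6036 CPM without the highest cell, and 2994 against 323 CPM without Ccl21a. The blood sum was 2694 CPM without its highest cell. In the 11 Nts-positive cells inside the endothelial gate the lymphatic list summed to 1580 CPM and the blood list to 7780 CPM, so the blood list differed less there. Pericyte and enteroendocrine markers were at 0 UMIs in the 24 cells, and fibroblast, leukocyte and neuron markers at 2, 3 and 1.

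**Figure D5:**
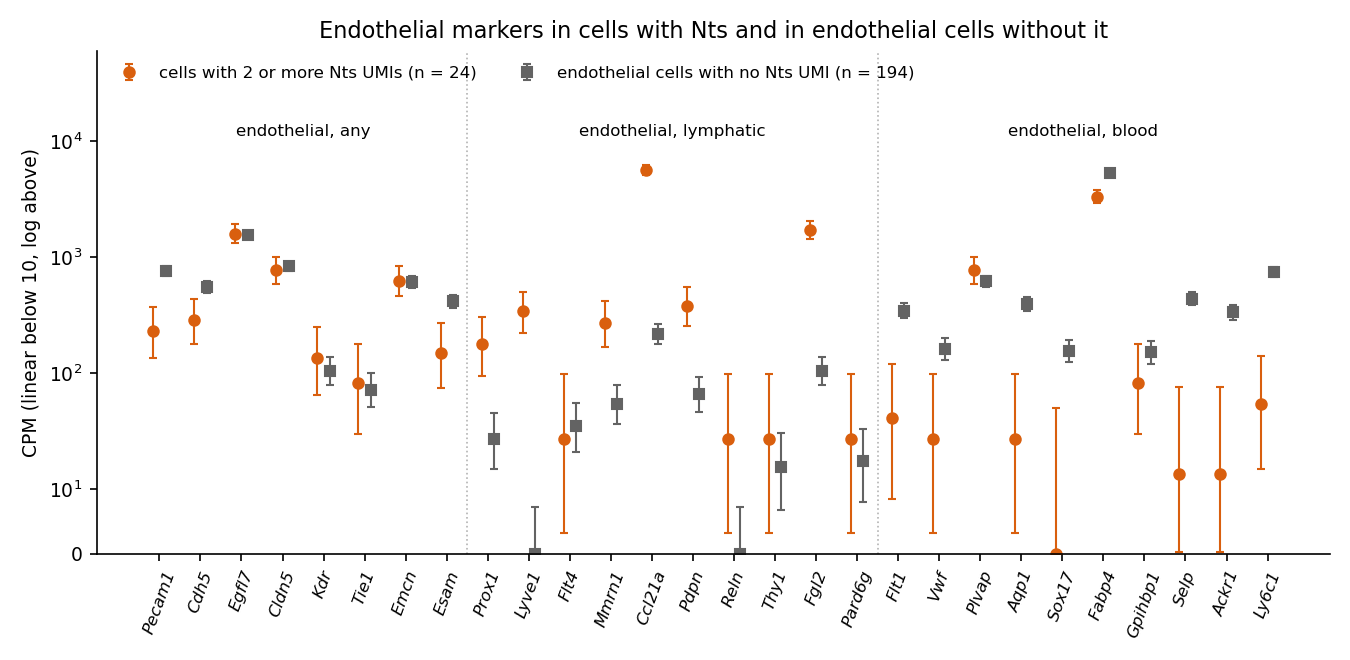
CPM of endothelial markers (y axis, with exact 95% counting intervals) in the 24 cells with at least 2 Nts UMIs and in 194 Nts-negative endothelial cells, all libraries summed, for the general, lymphatic and blood lists (x axis, genes). Prox1 stands at 178 against 27.4 CPM and Selp at 13.7 against 440 CPM.

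Gal levels rested on very few cells. Basal cells had 173, 16, 1 and 16 Gal UMIs in corn oil 1, corn oil 2, 4OHT 1 and 4OHT 2, which is 21.4, 2.45, 0.168 and 2.43 CPM. Both 4OHT libraries were below both corn oil libraries, as were 17.4% of genes in basal cells, and corn oil replicate 2 and 4OHT replicate 2 differed little. The share of Gal-positive basal cells was 0.535%, 0.517%, 0.0704% and 0.413%. In luminal progenitors it was 0.0565% to 0.310%, from 10 UMIs in all. The basal share of 4OHT replicate 1 lay within that background range. Hormone-sensing and endothelial cells had 0 UMIs.

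A single basal cell of corn oil replicate 1 held 160 Gal UMIs of its 16598, which is 92.5% of that library's basal Gal and 77.7% of all basal Gal. It passed the basal gate with 6 basal and 1 luminal keratin UMIs. Its leading genes included Gsta4 with 28 UMIs, Myod1, the muscle lineage factor, with 12, and Mt3, Uchl1 and Il11 with 8 each. The defining basal markers were thus nearly absent, so this cell goes against its class label. The next cells, with 32 and 20 Gal UMIs, were unclassified cells of corn oil replicate 2. Without the highest basal cell of each library the levels were 1.61, 1.68, 0 and 1.52 CPM. Over all kept cells Gal had 179, 78, 7 and 23 UMIs, or 8.96, 4.51, 0.319 and 1.18 CPM, with both 4OHT libraries below both corn oil libraries, as for 16.6% of genes. No test of Gal-positive cells was made, since 1 library alone had at least 10 positive basal cells.

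The genes were rarely found in the same cell. Npy and Gal were both detected in 1 cell, Npy and Cck in 1, and Gal and Cck in 6, of which 3 were basal. Nts shared no cell with any of the other genes. These counts are small for all pairs and are given with no test.

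In the fits of 4OHT against corn oil no member was called. In basal cells 3 members passed the filter on low counts and 0 were called, where 0% of 10788 genes were called by edgeR, 465 had an unadjusted p under 0.05 and DESeq2 called 38. In luminal progenitors Cck was tested and not called, with 0% of 10120 genes called (166 at an unadjusted p under 0.05, and 1 by DESeq2). In hormone-sensing cells Cck was tested and not called, with 0.0132% of 7589 genes called (240 at an unadjusted p under 0.05, and 7 by DESeq2). Over all cells the 4 members were tested and 0 called, with 0% of 12972 genes called (271 at an unadjusted p under 0.05, and 15 by DESeq2). The fitted log2 difference of Npy in basal cells, 4OHT minus corn oil, was 2.32. That of Gal there was -3.04, that of Cck in progenitors -0.17, and that of Nts over all cells 5.34. The members were chosen on these levels, so these values are a description only.

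Receptors of these peptides were nearly absent from the captured cells. Of 13 receptor genes 8 had 0 UMIs in all 17832 cells, namely Npy2r, Npy5r, Npy6r, Galr1, Ntsr1, Ntsr2, Cckar and Cckbr. Npy1r had 7 UMIs, Galr3 3, and Npy4r and Galr2 2 each. Sort1, the sorting receptor sortilin, which binds neurotensin, was the exception with 343 UMIs. It had 18.7 to 20.8 CPM in hormone-sensing cells and 8.39, 5.29, 3.93 and 3.06 CPM in luminal progenitors, with no overlap. The log2 difference was 1.78 (SE 0.24, edgeR adjusted p = 3.7e-05), in a comparison that called 52% of 9514 genes. Basal cells had 0.618 to 0.765 CPM of Sort1, below the luminal cells with a log2 difference of -3.72 (SE 0.28, edgeR adjusted p = 9.3e-07), where 56.8% of 11050 genes were called.

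Genes that process peptide precursors were present, while several defining genes of neuroendocrine cells and granules had no UMI and others were sparse. Pcsk1, the main convertase of regulated secretion, had 0 UMIs and Pcsk2 had 3. Chga, Chgb, Cadps and Snap25 had 0 UMIs, whereas the granule trafficking genes Rab27b, Rab3a and Cadps2 had 484, 393 and 304. Others of these lists were detected at low counts, among them Pcsk1n with 164 UMIs, Syt7 with 110, Scg3 with 57, Scg5 with 46 and Vgf with 29. The genes at 0 UMIs were 1 of 16 on the processing list and 4 of 16 on the granule list. The general convertase Furin had 3009 UMIs, the amidating enzyme Pam 2189 and the carboxypeptidase Cpe 1625. Of 8 processing genes tested between luminal classes, 3 were higher in hormone-sensing cells and 4 lower. That is 87.5% called, against 52% of all genes, with a list median of -0.31 against 0.02 for all genes. Cpe was 1.61 CPM in hormone-sensing and 32.5 CPM in progenitor cells (log2 difference -4.26). Pam had 51.7 and 23.7 CPM (log2 difference 0.91). Against luminal cells, 4 of 11 processing genes were higher in basal cells, among them Tpst1 and Pcsk5 (log2 differences 3.89 and 3.80), and 3 were lower, among them Cpe (-1.95). The share called was 63.6%, against 56.8% of all genes, and the list median was 0.12 against 0.03 for all genes.

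The shares of granule genes called between classes were near those of all genes, at 60% against 52% between the luminal classes and 60% against 56.8% between basal and luminal cells. Of 5 granule genes tested, 3 were higher in hormone-sensing than in progenitor cells, namely Syt7, Rab27b and Cadps2, with log2 differences of 4.61, 2.61 and 1.01. In basal against luminal cells 3 of 5 were lower, namely Cadps2, Syt7 and Stx1a, with -3.89, -3.71 and -1.02. Of 9 peptidases, which cut released peptides, 2 were higher and 4 lower in hormone-sensing than in progenitor cells. That is a share of 66.7%, against 52% of all genes. Mme, or neprilysin, had 1.49 CPM in hormone-sensing and 35.8 CPM in progenitor cells (log2 difference -4.62), and Anpep had 3.79 and 20.9 CPM (log2 difference -2.50). In basal against luminal cells 4 of 9 peptidases were higher and 4 lower, none by more than a log2 difference of 1.49, that of Prep. The share called there was 88.9%, against 56.8% of all genes. Within the Cck comparison, Cpe and Pam were lower among 8 processing genes (Pam log2 difference -0.86), and Rab3a was higher among 4 granule genes (log2 difference 1.62). Either share was 25%, against 13.1% of all genes. Within the Npy comparison 0 of 10 processing genes were called by edgeR, with 2 at an unadjusted p under 0.05, and the smallest p was that of Spcs1 (log2 difference -0.87, edgeR adjusted p = 0.236). With so few Npy-positive cells, the lack of calls there shows little about these genes. Of 9 peptidases none passed in the Npy comparison, and of 7 none passed in the Cck comparison, where Anpep came nearest (log2 difference 0.47, edgeR adjusted p = 0.0892).

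Other peptide genes of the gland also differed between classes. Of 49 on the list, 12 could be tested in basal against luminal cells, with 8 higher and 3 lower. That is 91.7% called, against 56.8% of all genes, and the list median was 1.997 against 0.03 for all genes. Adm, the vasodilator adrenomedullin, had 1639 CPM in basal and 277 CPM in luminal cells, and Pthlh, the parathyroid hormone-like hormone, 124 and 5.41 CPM. Cartpt, another neuropeptide gene, had 3.89 and 0.0537 CPM. Edn1, the vasoconstrictor endothelin, was lower in basal cells, with 4.58 against 123 CPM. Stc2, a stanniocalcin, was higher in hormone-sensing than progenitor cells, with 435 against 20.2 CPM. In Npy-positive basal cells Pthlh was higher (378 against 134 CPM, log2 difference 1.04) and Edn2 lower (26.0 against 85.7 CPM, log2 difference -2.04), among 7 such genes tested. Stc2 had 0 against 38.2 CPM there. Of the 7 genes 42.9% were called, against 2.49% of all genes. Of 6 such genes tested in the Cck comparison none passed, with Npw nearest (log2 difference 0.68, edgeR adjusted p = 0.192). Stc1, Tac1, Pyy and Nppc were sparse, with 376, 301, 231 and 220 UMIs in all kept cells.

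In the treatment fits no gene of the 5 lists (receptors, processing, granule, peptidases and other peptides) was called by edgeR in any class or over all cells. An unadjusted p under 0.05 was found for 465 of 10788 genes in basal cells, 166 of 10120 in luminal progenitors and 240 of 7589 in hormone-sensing cells. Among the other peptide genes the counts were 3 of 14, 4 of 9 and 2 of 5 in the same order. That list was chosen with earlier results of these data known, so its counts are a description. The smallest p were those of Edn2 in basal cells (106 against 32.4 CPM, 4OHT against corn oil), Pthlh in progenitors (8.74 against 1.38 CPM) and Npw in hormone-sensing cells (11.1 against 4.28 CPM), none past the edgeR threshold. Among peptidases it was Anpep in basal cells (5.70 against 16.5 CPM, edgeR adjusted p = 0.604). The other peptide genes had a median log2 difference of 0.16 in basal cells, against -0.02 for all genes.

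The genes with patterns most like each member were found by Pearson's r of log2(CPM + 1) over 16 sums (4 libraries and 4 classes) among 9858 genes. Sums of 1 library share its depth and those of 1 class its makeup, so r is a description. For Cck they were Folr1 (0.90), Scd1, Dapp1, Tspan33 (0.89 each) and BC016548 (0.88). For Npy they were Gfra2, Efcab1 and Gm35909 (0.96 each), then Ogn and Gm32219 (0.95 each). For Gal they were Pyy (0.95), Speer4e (0.87), Kcnk2 (0.85), Ghrh and Ism1 (0.83 each), and the low counts of Gal make these weak. For Nts they were Abi3bp (0.95), Zeb1 (0.94), Tuba1b (0.93), Rbp7 and Stc1 (0.91 each). Folr1 and Gm32219 are also in the lists of genes higher in positive cells.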

How the data were processed

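Mammary cells of 4 mice were profiled as 3′ libraries. The authors deposited raw UMI counts per gene and cell, made with Cell Ranger 3.0.1 on mm10, per the submitters' processing notes and the series' design text. Strand and intron settings are not given in the sources used here. The 4 members, the gene lists and the marker lists were chosen with earlier results of these data known.

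Cells with at least 1000 UMIs were kept. Basal cells had at least 5 UMIs of Krt5, Krt14, Krt17 and Acta2, and more than 3 times those of Krt8, Krt18 and Krt19. Luminal cells were the reverse, and were called hormone-sensing with at least 3 UMIs of Ly6d, Fxyd2 and Gpx3 and more of these than of Wfdc18, Csn3 and Ltf. Endothelial cells had at least 3 UMIs of Pecam1, Cdh5 and Egfl7 and fewer than 5 keratin UMIs. CPM and shares were computed here. Intervals are exact (Poisson for CPM, Clopper-Pearson for shares, 95%) and cover counting error only, as does the limit of 3 counts for a count of 0.

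UMIs summed per library and class, or per positive and negative cells, were tested with edgeR 4.0.16 in R 4.3.3 (TMM, filterByExpr, quasi-likelihood F-test, Benjamini-Hochberg, threshold 0.05), after the steps were tested on simulated data. The simulated counts had the same fixed dispersion for every gene, not estimated from these data, and the same mean in every library apart from the planted change. Of genes changed by a log2 of 2, edgeR called 30.5% in the simulated Npy comparison and 89% to 98% in the others. Since the real spread between mice was not simulated, these shares do not show how many such changes the real fits would find. DESeq2 1.42.0 was an alternative. Python 3.11.15, scanpy 1.11.5 and scipy 1.17.1 were also used. Scrublet's automatic threshold marked 0.04% to 0.15% of cells and was taken as failed, so doublets were kept, and an alternative left out the highest scores, 99 to 235 cells per library. Named genes were the members, the 5 most alike per member, and up to 12 genes each way with the largest difference at a mean of at least 20 CPM over positive and negative cells and the same direction in every library. Of the genes that this rule gives for Cck, 1 is not reported here. Listed genes that passed a test, cells and bins were named after their values were seen. Positions are from GENCODE M21 on GRCm38. The sums by Cck or Npy UMIs with a library left out, the values of corn oil replicate 2 beside the Npy comparison, and the lymphatic and blood sums without a cell or Ccl21a were added after seeing the data.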

Additional observations from a re-analysis of the deposited data

How the results depend on the processing

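The count of genes called between 4OHT and corn oil depended on the setting. In basal cells it was 93 with no filter on low counts, 38 with DESeq2, 167 with the replicate number as a block (replicate block), and 17 to 127 when each library was left out. In luminal progenitors these counts were 39, 1, 9 and 31 to 64, and in hormone-sensing cells 59, 7, 3 and 4 to 80. Over all cells DESeq2 called 15. With a library left out, 1 group has 1 sample, which is assumed to vary like the others. Replicate numbers are shared between the groups, but no label says that they mark a litter or day. Same-numbered libraries deviated together with correlations of 0.225 to 0.728, with 2 pairs only, so this paired fit is a hint. The Npy comparison gave 72 to 236 genes with a library left out, and 274 (192 shared) when corn oil replicate 2 was added, a choice made after seeing the data. The Cck comparison gave 518 to 976 with a library left out and 664 after thinning to 2000 UMIs. Of the values of named genes under the alternatives, 112 of 144 for Npy and 191 of 192 for Cck kept direction and call, and 0 reversed. Mean Npy in basal cells was 2.05 CPM in corn oil with at least 2000 UMIs per cell. It was 1.80 (corn oil) and 9.29 CPM (4OHT) without the highest cell of each library, 4.10 and 17.6 CPM as a mean over cells, and 16.6 CPM in 4OHT with a keratin ratio of 5. The mean share of Npy-positive cells was 0.251% and 1.11% after thinning and 0.219% and 0.767% with at least 2 UMIs. The share of Gal-positive cells in corn oil was 0.360% and 0.144% on the same settings, and that of Cck in 4OHT 7.44% with at least 2 UMIs. Thinning and the minimum of 2 UMIs were not run for the Npy comparison, since fewer than 3 libraries kept 10 positive cells. The causes of these shifts were not tested. Depth limits the shares, as 39 of 73 Npy-positive basal cells and 512 of 966 Cck-positive progenitors had 1 UMI.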
